A study of Mus musculus with 6 samples.

Results

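Transcripts of 8 protease inhibitor genes were followed in mature neutrophils: 5 genes of the mouse stefin A family (Stfa1, Stfa2, Stfa3, Stfa2l1 and BC100530), stefin B (Cstb), cystatin C (Cst3) and serpin B1 (Serpinb1a). Members were chosen by gene name from the 56884 rows of a table of normalized counts. Of the 8 names, 7 were found as listed, and BC100530 was found through its Ensembl identifier under its newer symbol, Cstdc5. The cells were CD101+ Ly6G+ neutrophils that the series describes as sorted from mouse bone marrow and then kept ex vivo. They were cultured either with DKK1, a secreted antagonist of Wnt signalling (3 libraries), or without it (control, 3 libraries). The sources used here give no strain, age, dose or length of culture. Whether replicate libraries stem from different mice or cultures is not stated in the labels, so each p-value refers to the spread among libraries, which may be technical.

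Stefins are small inhibitors that stay inside the cell and block cathepsins of the papain family by occupying the active site cleft, reversibly and very tightly. Cystatin C belongs to the same superfamily but is secreted, and it can also inhibit legumain through a separate site. Serpin B1 acts in another way: it offers a bait loop to neutrophil elastase, proteinase 3 and cathepsin G, and the protease is trapped on it. In mice the stefin A gene was duplicated into a cluster of related copies, some of them near-identical. Several of the copies are known as abundant transcripts of bone marrow neutrophils, and serpin B1 is known to protect neutrophils from their own granule proteases.

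The near identity of some copies bears on their values below, since reads that fit several copies can be divided between their rows. Positions come from GENCODE M21 on GRCm38 (mm10), joined to the table by Ensembl identifier with the version removed. Stfa2l1 and Stfa2 shared 301 of 312 aligned coding bases (96.5%), and Stfa1 and BC100530 shared 288 of 294 (98.0%). Identities of coding sequences cover aligned bases only, and the Stfa1 sequence used has 387 coding bases. The first 90 coding bases of each gene of these pairs, taken from the GENCODE M21 transcripts, are shown to let the pairs be compared. Capitals mark the bases that differ within a pair, 6 in the first pair and 3 in the second.
Stfa2l1: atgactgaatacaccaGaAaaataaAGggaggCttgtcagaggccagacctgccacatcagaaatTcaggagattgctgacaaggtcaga
Stfa2: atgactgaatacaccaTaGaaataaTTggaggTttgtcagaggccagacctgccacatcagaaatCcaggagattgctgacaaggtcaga
Stfa1: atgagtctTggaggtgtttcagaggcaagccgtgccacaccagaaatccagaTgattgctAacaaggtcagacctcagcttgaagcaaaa
BC100530: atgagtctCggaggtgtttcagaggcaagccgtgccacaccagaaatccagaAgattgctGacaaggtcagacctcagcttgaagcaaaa

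The length of a read sets how often such copies are confused, and the sources used here do not state it. Of all 50-base windows of a transcript, 24.6% in Stfa2l1, 15.9% in Stfa2, 25.4% in Stfa1 and 49.0% in BC100530 occurred exactly in a transcript of another gene. At 100 bases the shares were 0% in Stfa2l1 and Stfa2, 1.93% in Stfa1 and 22.3% in BC100530, and at 150 bases they were 0% in all 4. Stfa3, Cstb and Cst3 had 0% at each of the 3 lengths. Serpinb1a shared 3.42% of its 50-base windows, with its paralogs Serpinb1b and Serpinb1c and a pseudogene, and 0% at the longer lengths. An antisense gene, Gm15845, overlaps BC100530, and it is listed at 0 in all 6 libraries.

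The stefin A copies were also alike upstream of their start sites. In the RefSeq promoter table (GRCm38.p6, 250 bases before to 50 after each start), the promoters of Stfa1, Stfa2, Stfa3, Stfa2l1 and BC100530 shared several runs of letters. The longest run around TTTAAA that the 5 hold before their start is ACCTTTAAAACC, of 12 letters, and it was sought after the sequences had been looked at. Searched on both strands it was present in 11 of 32851 promoters (0.0335%), of which 8 belong to stefin A genes. TTTAAA alone is in 13.2% of all promoters. Over aligned bases, the promoters of Stfa2l1 and Stfa2 were 92.9% identical, and those of Stfa1 and BC100530 were 96.4% identical. The 120 bases before the start are printed for Stfa2l1 and Stfa3, the members with the largest and the smallest fall, and for Cstdc4, a neighbouring stefin A gene, with this run in capitals.
Stfa2l1, chr16:36156691-36156810, plus strand: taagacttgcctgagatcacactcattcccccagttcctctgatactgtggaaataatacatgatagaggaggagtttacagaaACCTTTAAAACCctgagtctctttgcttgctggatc
Stfa3, chr16:36455393-36455512, minus strand: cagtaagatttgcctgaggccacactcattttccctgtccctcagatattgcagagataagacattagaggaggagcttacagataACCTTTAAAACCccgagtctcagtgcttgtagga
Cstdc4, chr16:36184092-36184211, plus strand: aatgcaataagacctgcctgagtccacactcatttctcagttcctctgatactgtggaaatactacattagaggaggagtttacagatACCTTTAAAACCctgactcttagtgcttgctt

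The run began 36 bases before the start of Stfa2l1, 34 before that of Stfa3 and 32 before that of Cstdc4. In Stfa1 and Stfa2 it began 33 and 32 bases before the start. Its distance from the annotated start varied. It began 12 bases before the start of BC100530, 80 before that of Csta3 and 58 before a start of Cstdc3. The Csta3 transcript used has 294 bases, all of them coding, so its annotated start is the start of its coding sequence. Whether the run bears on level or on the change with DKK1 was not tested. A motif of the C/EBP factors, TTGCNNAA on either strand, was found in the promoters of Stfa1 and BC100530 and not in those of Stfa2l1, Stfa2 and Stfa3. It is in 10.8% of all promoters. The Cst3 promoter held none of the 3 motifs in this window.

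With DKK1, 7 of the 8 inhibitor transcripts fell and 1, Cstb, rose. The largest fall was in Stfa2l1, 323-fold, and the rise of Cstb was 25.5-fold, so that per exon length Stfa2l1 was the most abundant of the 8 transcripts in control and Cstb with DKK1. All 8 members could be tested with limma on log2(normalized count + 1), in which 16265 genes entered, and the threshold was a Benjamini-Hochberg adjusted p of 0.05. Most genes passed that test: 36.1% of all tested genes were lower and 35.1% higher, so the number of members called does not set them apart. The groups did not overlap for any member, as for 73.9% of all tested genes. By size, 5 members had a log2 change under -4, which 6.85% of all tested genes had. Cstb had a change over 4, which 4.55% had. The count of 5 depended on the constant added before the logarithm. With the largest constant tried, Stfa2, BC100530 and Serpinb1a had log2 changes of -2.14, -2.817 and -3.632. Stfa1 and Stfa2l1 stayed under -4 with it, at -4.125 and -7.168. The median log2 change was -4.81 over the members and -0.03 over all tested genes. The members were chosen with earlier results of these data known, so these shares and medians do not set them apart either. Setting all libraries to equal total reads gave 7098 genes higher and 4742 lower in place of 5709 and 5873, so 59.9% of calls were higher in place of 49.3%. That scaling moved the median of all tested genes by 0.47, and every member kept its direction and its call.

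**Figure D1:**
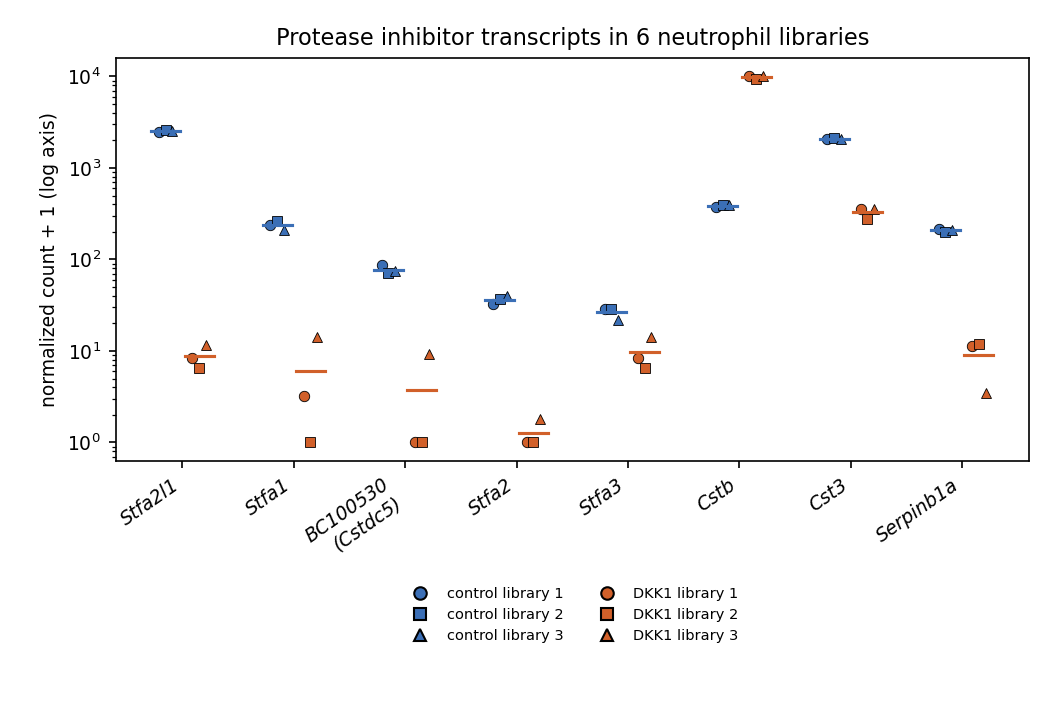
Normalized count + 1 on a log axis for the 8 inhibitor genes, with 1 point per library (blue, 3 control libraries; orange, 3 DKK1 libraries) and a bar at each group mean. Control points lie above DKK1 points for 7 genes and below them for Cstb, and the scatter of DKK1 points is widest for Stfa1, BC100530 and Serpinb1a.

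The libraries held 5188116 to 9851961 reads, recovered from the values, and 15610 to 16751 genes were detected in each. A read was worth a normalized count of 0.745 to 1.37, so values under about 10 rest on few reads. The sorting markers were present in control and nearly absent with DKK1: Cd101 stood at 5098 ± 178 and 3.53 ± 2.31, and Ly6g at 1338 ± 72.7 and 5.96 ± 1.30 (SD, n = 3 each). Of 13 neutrophil markers, 12 fell and 1, Camp, did not pass (with equal total reads and with quantile scaling Camp was higher), and their summed level was 695721 to 721351 in control and 3437 to 3874 with DKK1. Of 14 macrophage and monocyte markers, 3 rose, 7 fell and 4 did not pass, with a summed level of 50718 to 52695 in control and 53050 to 62217 with DKK1. That sum rests mainly on Mpeg1, which did not pass, and without it, a sum made after the values were seen, the other 13 stood at 7404 to 7551 in control and 15292 to 15403 with DKK1. Most of this second DKK1 sum is Cd68, at 902 ± 43.7 in control and 10121 ± 286 with DKK1. Its rise therefore rests on 1 of these markers and does not describe them as a set. Among the abundant ones Cd68, Adgre1 and Ms4a7 rose, with log2 changes of 3.49, 1.35 and 6.44, and Ly6c2 fell by 6.45. Csf1r fell by 0.41 on that scale, but its change was 0.12 with equal total reads and 0.26 with quantile scaling. C1qa, named after its values were seen, had 0 reads in the DKK1 libraries. With equal total reads, 5 of the 14 were higher and 4 lower. The part of these marker changes in the inhibitor values was not tested, and in bulk RNA fewer cells of a type and less RNA per cell cannot be told apart.

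Stfa2l1 was the most abundant stefin A transcript of control neutrophils by normalized count. Cstdc4, a copy outside the members, came next at 1525 ± 28.5. The Stfa2l1 gene (ENSMUSG00000059657.6) lies on chromosome 16 from 36156811 to 36161953, plus strand, and like the other stefin and cystatin members it has 3 exons. Its normalized counts were 2489.5, 2611 and 2519 in control, in the order of libraries 1 to 3 as in all lists of values here, and 7.45, 5.49 and 10.6 with DKK1. The control libraries lay close together and all DKK1 libraries were far below them. The mean fell from 2539.8 ± 63.2 to 7.85 ± 2.58 (SD, n = 3 each), a log2 change of -8.21 (SE 0.20, limma adjusted p = 1.11e-09). Ordered from the lowest log2 change, Stfa2l1 was at rank 64 of the 16265 tested genes.

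Stfa1 (ENSMUSG00000071562.7, chromosome 16, 36276951 to 36285373, plus strand) was the next of the stefin A members by level. Its values were 238, 264 and 211 in control and 2.24, 0 and 13.1 with DKK1. The DKK1 libraries differed among themselves, with none of its reads in library 2 and 16 in library 3, but none reached the control range. The mean fell 46.6-fold, from 238 ± 26.4 to 5.10 ± 6.99, a log2 change of -6.06 (SE 0.79, limma adjusted p = 0.000106). The size depended on single libraries, since leaving out DKK1 library 3 gave a log2 change of -7.05, and leaving out DKK1 library 2 gave -5.14.

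BC100530, the near copy of Stfa1 (ENSMUSG00000071561.3, chromosome 16, 36359382 to 36367748, minus strand), had values of 86.8, 69.3 and 72.9 in control and 0, 0 and 8.17 with DKK1. All 10 of its DKK1 reads were in library 3, against 215 reads in the control libraries. The fall was 28.0-fold, from 76.3 ± 9.23 to 2.72 ± 4.71, a log2 change of -5.20 (SE 0.79, limma adjusted p = 0.000288), and -6.27 without DKK1 library 3. When the rows of the pair were added, Stfa1 and BC100530 fell together 40.1-fold, from 314 ± 26.4 to 7.82 ± 11.7, so the direction does not depend on how reads were divided between these 2 rows. The summed DKK1 values were 2.24, 0 and 21.2, and dropping DKK1 library 3 gave a ratio of 281, dropping DKK1 library 2 one of 26.8.

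Stfa2, the near copy of Stfa2l1 (ENSMUSG00000022902.9, chromosome 16, 36403992 to 36408457, minus strand), was present at 31.8, 35.7 and 38.4 in control and at 0, 0 and 0.817 with DKK1. The last value is a single read, against 100 reads in control. The ratio of the pooled reads, scaled to the depth of each group, was 117, with a 95% exact counting interval of 20.5 to 4658 that covers counting error only. Stfa2, Stfa1 and BC100530 passed the filter on low values only through their control libraries. Its log2 change was -4.89 (SE 0.44, limma adjusted p = 7.81e-06), and it depended on the constant added before the logarithm, from -7.40 with 0.1 to -2.14 with 10. The summed rows of Stfa2l1 and Stfa2 fell 317-fold, from 2575 ± 64.3 to 8.13 ± 3.02.

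Stfa3 (ENSMUSG00000054905.3, chromosome 16, 36450537 to 36455392, minus strand) had the smallest change of the 5. It had values of 27.5, 27.9 and 20.7 in control and 7.45, 5.49 and 13.1 with DKK1. The lowest control library and the highest DKK1 library were closer here than for any other member, and they rest on 21 and 16 reads. The mean fell 2.92-fold, from 25.4 ± 4.05 to 8.67 ± 3.93, a log2 change of -1.51 (SE 0.39, limma adjusted p = 0.00658). The highest adjusted p over the other ways of processing was 0.0462. Over aligned bases, the coding sequence of Stfa3 is 81.7% identical to that of Stfa2l1 and 84.7% identical to that of Stfa1.

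The 5 stefin A members together stood at 2874, 3007 and 2862 in control and at 17.1, 11.0 and 45.7 with DKK1. Their sum fell 118-fold, from 2914 ± 80.6 to 24.6 ± 18.5, and without DKK1 library 3 the ratio was 207. The make-up of this sum, which leaves out Cstdc4, differed as well. In the control libraries, Stfa2l1 took 86.6% (95% exact Clopper-Pearson interval 85.3 to 87.9), 86.8% (85.5 to 88.1) and 88.0% (86.8 to 89.2) of the reads of the 5 genes. In the DKK1 libraries it took 43.5% (23.2 to 65.5) of 23 reads, 50% (15.7 to 84.3) of 8 reads and 23.2% (13.0 to 36.4) of 56 reads. All DKK1 intervals lay below all control intervals, narrowly so for DKK1 library 2 with its 8 reads.

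The other stefin A genes of the cluster, from Csta1 at 36119946 to Stfa3 at 36455392 on chromosome 16, were read in the same way. Cstdc4 (ENSMUSG00000079597.3) was the other abundant copy, at 1554, 1497 and 1524 in control and 2.24, 11.0 and 43.3 with DKK1. All DKK1 libraries were again far below control, and they differed widely among themselves. The mean fell 81.0-fold, from 1525 ± 28.5 to 18.8 ± 21.6, a log2 change of -6.99 (SE 0.81, limma adjusted p = 0.000109). Without DKK1 library 3 the log2 change of Cstdc4 was -7.94, and without DKK1 library 1 it was -6.05. Csta3 fell from 21 reads in control to 0, which is at least 8.18-fold lower against a floor of 3 reads over the group. Csta2, whose coding sequence is 96.9% identical to that of Cstdc4, stood at 4.68 ± 1.49 in control and 3.43 ± 4.11 with DKK1, short of the threshold (limma adjusted p = 0.363). Without DKK1 library 3 its adjusted p was 0.0468. Cstdc3, an annotated pseudogene, had 0 reads, Csta1 had 1 and Cstdc6 had 3, all in control, and these genes could not be tested. The values of Csta2 rest on 13 reads in control and 12 with DKK1, of which 10 were in DKK1 library 3. Of 50-base windows, 35.6% of Cstdc4 occurred in Csta2 and 39.2% of Csta2 in Cstdc4, and at 100 bases 11.1% and 17.95%. Reads can thus be divided between these rows. Within the cluster, the listed abundance and change were uneven between rows of like sequence, and the part of shared reads in this was not tested.

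DKK1 library 3 held the highest DKK1 value for 7 of the 8 tested genes of the cluster, the exception being Csta3, which was at 0 in all DKK1 libraries. The summed neutrophil markers of library 3 lay between those of the other DKK1 libraries. Over all annotated Stfa and Cstdc rows, the sum fell 102-fold, from 4440.5 ± 61.7 to 43.5 ± 39.5, and the ratio was 215 without DKK1 library 3.

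**Figure D2:**
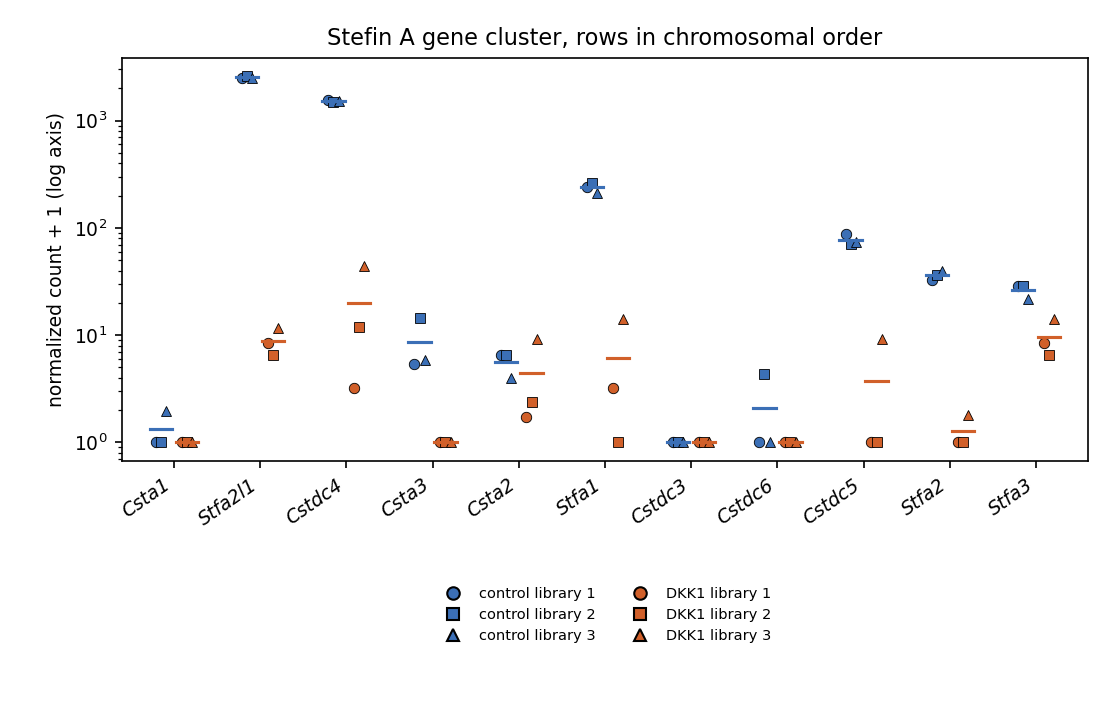
Normalized count + 1 on a log axis for the stefin A genes in their order on chromosome 16, with 1 point per library and a bar at each group mean. Stfa2l1 and Cstdc4 stand above all others in control, and the triangle of DKK1 library 3 is the highest DKK1 point for 7 of the 8 tested genes.

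Cstb, which encodes stefin B, an inhibitor of lysosomal cathepsins present in most cell types, moved the opposite way. The gene (ENSMUSG00000005054.8) lies on chromosome 10 from 78425669 to 78427622, plus strand, away from the stefin A cluster, and its coding sequence is 61.5% identical to that of Stfa2l1. Its normalized counts were 377, 392 and 394 in control and 10079.9, 9381 and 10135 with DKK1. Each group was tight, and all DKK1 libraries were far above all control libraries. The mean rose 25.5-fold, from 388 ± 9.54 to 9865 ± 421, a log2 change of 4.67 (SE 0.06, limma adjusted p = 5.81e-11). Ordered from the highest log2 change, Cstb was at rank 460 of 16265. This rise outweighed the falls in reads: the 8 members together took 0.0565% to 0.0591% of all reads in control and 0.136% to 0.160% with DKK1.

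Cst3, the gene of the secreted inhibitor cystatin C (ENSMUSG00000027447.7, chromosome 2, 148871722 to 148875692, minus strand), was an abundant control transcript at 2061, 2140.4 and 2056. With DKK1 it stood at 355, 279 and 356, so all 3 libraries were lower, and the transcript was still read at depth in each. The mean fell 6.32-fold, from 2086 ± 47.2 to 329.9 ± 44.2, a log2 change of -2.67 (SE 0.10, limma adjusted p = 1.86e-08). The 95% interval of that change ran from -2.90 to -2.44.

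Serpinb1a, the main mouse gene of serpin B1 (ENSMUSG00000044734.17, chromosome 13, 32842092 to 32851185, minus strand, 7 exons), had values of 214, 197 and 209.9 in control. With DKK1 the values were 10.4, 11.0 and 2.45. The DKK1 libraries were all far lower, and library 3, the highest for most stefin A genes, was the lowest here, with 3 reads. The mean fell 26.0-fold, from 207 ± 9.14 to 7.96 ± 4.78, a log2 change of -4.74 (SE 0.45, limma adjusted p = 1.07e-05), and -4.15 without DKK1 library 3. Its paralogs Serpinb1b and Serpinb1c had 0 reads in these libraries.

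**Figure D3:**
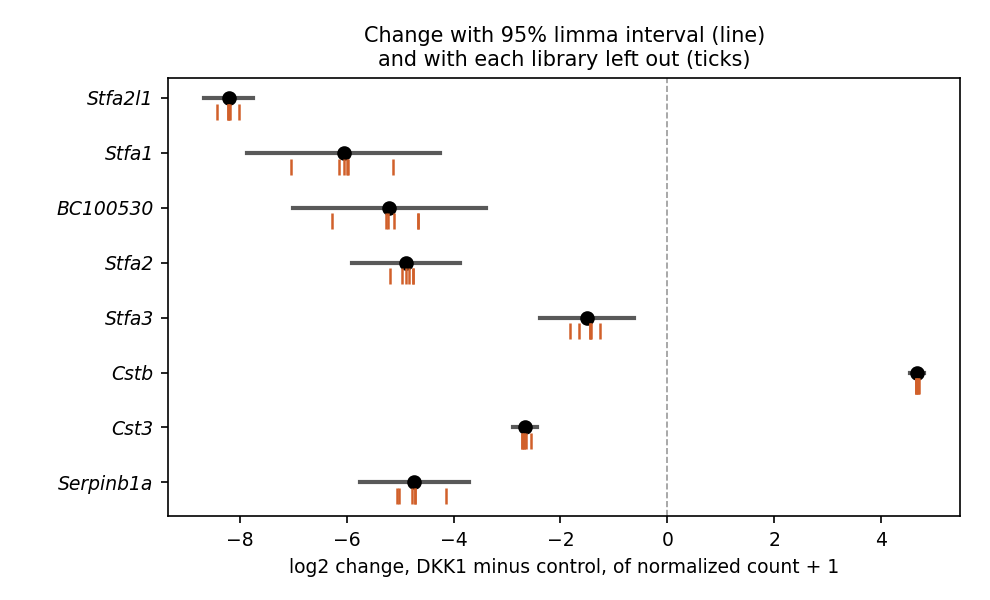
Log2 change of normalized count + 1, DKK1 minus control, for the 8 inhibitor genes, with the 95% limma interval as a line and the value with each of the 6 libraries left out as ticks. The ticks lie close to the point for Stfa2l1, Cstb and Cst3 and spread most for Stfa1 and BC100530, and none crosses 0.

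To compare levels of different genes, the normalized count was divided by the summed exon length of the gene in kilobases. The way of counting and any RNA selection are not stated, so whether this division suits these libraries is not known. In control the order of these levels was Stfa2l1 at 6062 ± 151, Cst3 at 1648 ± 37.3, Cstb at 643 ± 15.8, Stfa1 at 335 ± 37.2, BC100530 at 96.6 ± 11.7, Serpinb1a at 89.8 ± 3.97, Stfa2 at 75.0 ± 7.02 and Stfa3 at 61.5 ± 9.83 (SD, n = 3 each). BC100530 and Serpinb1a did not differ beyond their spread, nor did Stfa2 and Stfa3. With DKK1 the order of levels per kilobase was Cstb at 16360.4 ± 697, Cst3 at 261 ± 34.9, Stfa3 at 21.05 ± 9.54, Stfa2l1 at 18.7 ± 6.17, Stfa1 at 7.18 ± 9.84, Serpinb1a at 3.46 ± 2.07, BC100530 at 3.45 ± 5.97 and Stfa2 at 0.578 ± 1.00. Cstb and Cst3 stood clear of the rest in these libraries, while from Stfa3 downwards neighbours in the order did not differ beyond their spread.

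The genes whose pattern over the 6 libraries was most like that of a member were found by the root mean square difference of centred log2 values among 6446 genes with a mean of at least 100. For Stfa2l1 these were Tlr8, a receptor for RNA in endosomes (difference 0.111), Cytip (0.167) and Hacd4 (0.178). For Cst3 they were Fpr1, the formyl peptide receptor of phagocytes (0.0393), Ppox (0.0457) and Cnnm3 (0.0465). For Cstb they were Gabarapl1, an autophagy protein gene (0.0749), Rrn3 (0.0813) and Mfsd12 (0.101), and for Serpinb1a they were Rab23 (0.165), Sema4f (0.238) and Cerkl (0.282). With 2 groups, this likeness is mainly a likeness in the size of the change.

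Among the cysteine proteases that stefins and cystatins inhibit, the transcripts did not move as a block. Of 11 listed genes, 10 were tested, of which 4 rose, 2 fell and 4 did not pass, with a median log2 change of 0.00 against -0.03 over all tested genes. Ctsb, the gene of cathepsin B, stood at 2119, 2204 and 2214 in control and at 45034, 49081 and 45006 with DKK1. The mean rose 21.3-fold, from 2179 ± 51.9 to 46374 ± 2345. The log2 change of Ctsb was 4.41 (SE 0.05, limma adjusted p = 3.15e-11), beside 4.67 for Cstb. Ctsz (cathepsin Z) rose 16.5-fold, from 628 ± 24.2 to 10356 ± 1295. Ctsk, which encodes the collagen-degrading cathepsin K, rose 89.5-fold, from 10.3 ± 4.54 to 921 ± 38.7, and Lgmn, legumain, rose 9.57-fold, from 67.6 ± 4.91 to 647 ± 58.9. Ctsh (cathepsin H) fell 2.82-fold, from 839 ± 19.2 to 298 ± 34.9.

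Ctss, the gene of cathepsin S, a protease of antigen presentation, stood at 794, 772 and 739 in control and 783, 710.2 and 876 with DKK1. The groups overlapped and it did not pass (limma adjusted p = 0.739), whereas with equal total reads its log2 change was 0.57 (limma adjusted p = 0.00107). The second gene that fell was Ctsw, from 10 reads to 1, a call that DESeq2 did not make (adjusted p = 0.0751), and those that did not pass also included Ctsl, Ctsc and Ctso; these 4 are named after their values were seen. Summed over the 11 genes, the proteases stood at 4847 to 4961 in control and 57597 to 63866 with DKK1.

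The serine proteases that serpin B1 inhibits were low transcripts in control. Of 5 listed genes, 3 fell, 0 rose and 2 did not pass. The list includes their activator Ctsc (cathepsin C) and Prss57, which is not among the targets named above. Of those targets, Elane and Prtn3 fell and Ctsg did not pass. The count of 0 higher also held at an unadjusted p under 0.05 by limma, and by edgeR and DESeq2. Elane, neutrophil elastase, had values of 19.8, 10.1 and 31.5 in control and 0.745, 0 and 0 with DKK1, which is 59 reads against 1. Prtn3, proteinase 3, fell 6.28-fold, from 20.4 ± 2.79 to 3.25 ± 4.95, and its DKK1 values of 8.94, 0 and 0.817 differed between libraries. Dropping DKK1 library 1 gave Prtn3 a log2 change of -3.98, and dropping DKK1 library 2 gave -2.33. Prss57, a related granule protease, fell from 108 reads to 0, at least 42.0-fold. Ctsg, cathepsin G, stood at 9.27 ± 1.58 and 11.0 ± 7.37 (limma adjusted p = 0.91), and Ctsc at 114 ± 2.33 and 96.1 ± 28.1 (limma adjusted p = 0.279). The median of the list was -3.02, which is the value of Prtn3.

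Most other genes of the inhibitor families were too low to test. Of 19 other listed cystatin genes, 3 were tested: Cstdc4 and Csta3, described above, fell, and Cst7 rose. Csta2, which did not pass, was not on that list. Cst7, which encodes cystatin F, an inhibitor sorted to lysosomes, had values of 0, 0 and 0.985 in control and 14.2, 22.0 and 31.8 with DKK1. Every DKK1 library was higher, on 74 reads against 1, a depth-scaled ratio of pooled reads of 63.4 (95% exact counting interval 11.0 to 2536; limma adjusted p = 7.09e-05). Cst7 passed the filter on low values through its DKK1 libraries alone. Of 26 other clade B serpins, 5 were tested, of which 3 rose, 1 fell and 1 did not pass. Serpinb2, an inhibitor of urokinase, rose 29.7-fold, from 2.22 ± 1.92 to 65.8 ± 11.6, a log2 change of 4.64, and 3.93 without control library 3. Serpinb8 rose 4.94-fold, from 4.18 ± 1.85 to 20.6 ± 6.11, and Serpinb9, a granzyme B inhibitor, rose 6.43-fold, from 1.44 ± 0.691 to 9.25 ± 4.55. Serpinb10 fell from 73 reads to 2. Serpinb6a stood at 95.2 ± 21.1 in control and 67.5 ± 3.49 with DKK1, short of the threshold (limma adjusted p = 0.0519). Its adjusted p was 0.0263 by edgeR on the recovered reads, 0.178 by limma without control library 2 and 0.816 by limma with equal total reads, where its log2 change turned to 0.05. Serpinb1a thus shared its direction with Serpinb10 and not with the 3 relatives that rose. Those 3 rest on few control reads: 6 for Serpinb2, 12 for Serpinb8 and 4 for Serpinb9.

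Inhibitors of other families that leukocytes make were also split. Of 15 listed genes, 6 were tested, of which 1 rose, 3 fell and 2 did not pass, with a median log2 change of -1.66. Slpi, a secreted inhibitor of elastase and cathepsin G, rose 2.93-fold, from 6575 ± 50.7 to 19252 ± 1033. Timp2, a metalloproteinase inhibitor, fell 9.09-fold, from 2434 ± 69.1 to 268 ± 42.1. Wfdc17 fell 11.9-fold, from 2425 ± 63.1 to 203 ± 18.8, and Wfdc21 fell 25.1-fold, from 1716 ± 54.8 to 68.3 ± 21.7. Serpine2 and Serpina3g did not pass. Thus Cstb and Slpi were the abundant inhibitor transcripts that rose, while Stfa2l1, Cstdc4, Cst3, Timp2, Wfdc17 and Wfdc21 were abundant in control and fell.

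**Figure D4:**
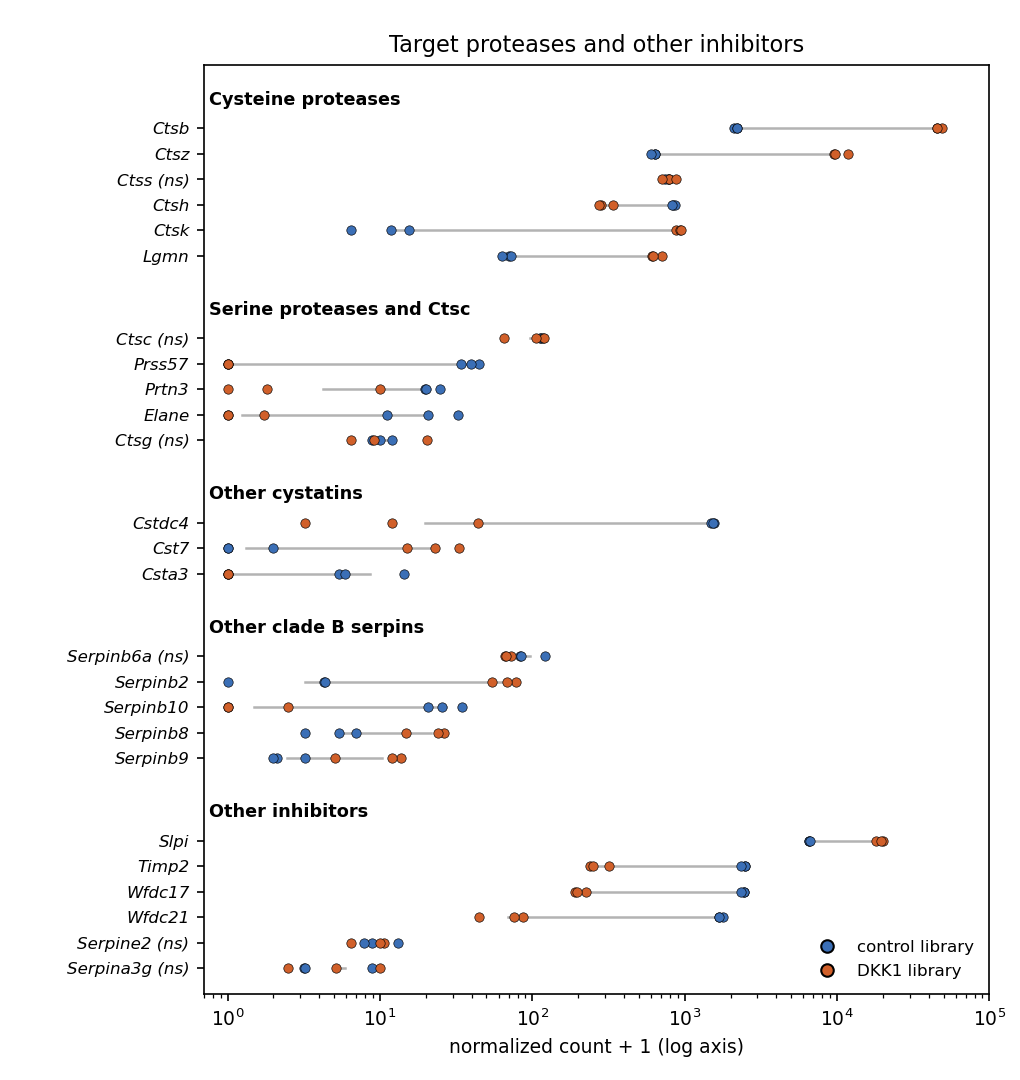
Normalized count + 1 on a log axis for the listed proteases and other inhibitors, up to 6 genes of highest mean from each list, with 1 point per library (blue, control; orange, DKK1), a grey line between group means and "ns" for genes that did not pass limma. Ctsb, Ctsz, Ctsk and Lgmn lie to the right with DKK1, and Elane, Prtn3 and Prss57 lie to the left.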

How the data were processed

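The aligner, counting tool, annotation, strand, way of normalizing and any RNA selection were not given in the sources used here. Reads were placed on mm10, per the submitters' processing notes. The authors deposited a table of normalized counts (a non-negative signal), as named per the file headers. Dividing by the value of 1 read in each library gave whole reads for 100% of values within 0.001 reads, and these recovered reads were used for depth, intervals and count tests. A further 3 columns match no sample and were not used here. Of the identifiers, 51948 (91.3%) matched GENCODE M21 without version.

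Genes at 1 or more in at least 3 of 6 libraries were tested with limma 3.58.1 (trend, robust; R 4.3.3) on log2(value + 1), two-sided, with Benjamini-Hochberg adjustment over 16265 genes and a threshold of 0.05. Small values are understated on that scale. Folds are ratios of group means, except that a group with 1 to 3 reads is given by the depth-scaled ratio of pooled reads, and one with 0 by a bound. A floor is 3 reads over a group, a mean of 1.06 in control and 0.911 with DKK1. Intervals and floors cover counting error only. Alternatives included edgeR 4.0.16 (quasi-likelihood) and DESeq2 1.42.0 on the recovered reads. The fit was tested on simulated data with known changes in few genes and 1 fixed dispersion. In the real data most genes passed, so that test does not give the error rate here. Its first rule on recovery, over all genes, was not met with every seed and was then limited to more abundant genes.

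The members, gene lists and tests were chosen with earlier results of these data known. Named genes are the members, up to 6 tested genes of highest mean per list, and the 3 genes of most like pattern for 4 members. Cd101 and Ly6g are named as the sorting markers, and Camp and C1qa after their values were seen. Of the named genes of the inhibitor and protease lists, Csta2, Csta3, Cst7, Serpinb2, Serpinb9, Serpinb10, Elane, Prtn3, Prss57 and Ctsw passed the filter only through the group where they were higher. The cluster's other genes were taken from the annotation. One gene of the list of other inhibitors is not reported here, and the counts and median of that list leave it out. Dendritic cell (3 of 6 tested higher, 1 lower), B cell (6 of 7 lower), T and NK cell (2 of 2 lower), basophil, mast cell and eosinophil (5 of 9 higher, 1 lower) and erythroid (5 of 7 lower) markers were counted too, and the B cell and erythroid counts varied with the processing.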

Additional observations from a re-analysis of the deposited data

How the results depend on the processing

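Under each of 18 alternatives, 1 member was higher and 7 were lower, with every member past the threshold; the highest adjusted p was 0.0462, for Stfa3. Over leaving out each library in turn, genes called numbered 5409 to 5651 higher and 5483 to 5895 lower. The log2 ratio of the summed 5 stefin A members was -6.89, from -7.70 (without DKK1 library 3) to -6.54 (without DKK1 library 2), and -6.335 with equal total reads. Low members depended on the constant added before the logarithm: with 0.1 and 10 the log2 change of BC100530 was -7.45 and -2.82, and that of Stfa1 -7.35 and -4.13. Control and DKK1 libraries of the same number showed no shared deviation (correlations -0.005, 0.007 and 0.017). With 3 libraries per group, whose deviations include counting error, this cannot settle whether a shared animal or culture pairs them. With a replicate block 5630 genes were higher and 5817 lower, and 1 member was higher and 7 lower. Of the single genes named, Ctsw lost its call with DESeq2, and Serpinb6a (8 alternatives), Ctss, Ctso and Epx (2 each) and Csta2 (1) came to pass the threshold. With equal total reads and quantile scaling the log2 changes turned to 0.49 and 0.26 for Camp, 0.12 and 0.26 for Csf1r and 0.48 and 0.47 for Mpeg1, and with equal total reads that of Ctsl turned to 0.49. Over the alternatives the B cell markers called lower numbered 2 to 6, the erythroid markers lower 2 to 7, the macrophage and monocyte markers higher 3 to 5 and lower 4 to 7, and the cysteine proteases higher 4 to 6 and lower 1 to 3. Few reads limit the values of Stfa2, Stfa3 and BC100530 with DKK1.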

Other observations

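DKK1 library 3, in which most stefin A genes had their highest DKK1 value, was also the highest DKK1 library for other genes, of which Prg2, Epx, Chil3 and Il13 were picked after their values were seen. Prg2, the eosinophil major basic protein gene, stood at 0, 4.12 and 150.2 in DKK1 libraries 1 to 3 and at 7.69, 3.35 and 13.8 in control. Epx, eosinophil peroxidase, had values of 0, 2.75 and 38.4 with DKK1 and 1 read in control. Some other genes of the same marker list were lowest in library 3: Siglecf stood at 2.24, 1.37 and 0 with DKK1, Mcpt8 at 97.6, 45.3 and 38.4, Cpa3 at 66.3, 27.5 and 24.5, and Prss34 at 81.2, 96.2 and 34.3. Ms4a2 was lowest there as well, at 26.8, 20.6 and 19.6. The Siglecf values rest on 3, 1 and 0 reads, and those of Cpa3 in libraries 2 and 3 on 20 and 30. Gata2 of that list was lowest in library 2, and Fcer1a had 0, 0 and 2 reads. Chil3 stood at 20.1, 31.6 and 122 with DKK1. Il13, a type 2 cytokine gene, stood at 1.49, 0 and 23.7 with DKK1, and it had 0 reads in control. Serpinb1a went the other way in that library, with 3 reads against 14 and 8.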
